A study of Mus musculus with 21 samples.

Results

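Very broad H3K4me1 domains were taken as the regions of the deposited table whose listed width is at least 10000 bp, whatever their annotation. Of 186826 regions, 4217 met this rule (2.26%), and 4216 of them have levels, since the whole mitochondrial genome, which is also listed, has none. Their median width was 13093 bp against 1948 bp for all regions, and 1408 reached 15000 bp, 555 reached 20000 bp and 122 reached 30000 bp. The domains held 62.9 Mb, 12.3% of the length covered by all regions, and between 15.4% (naive DKO) and 17.1% (naive floxed line) of the normalized reads of a group.

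Mouse embryonic stem cells were profiled by CUT&RUN, where an antibody against the mark brings a protein A-MNase fusion to chromatin and the cut fragments are sequenced. The DKO cells (MLL3KO_MLL4KO) lack MLL3 and MLL4, and their control is a floxed line (MLL3KO_MLL4fl) that already lacks MLL3. The dCD cells (MLL3CD_MLL4CD) carry CD alleles of both proteins, here read as catalytically dead, and their control is the wild type (WT); both of these carry the line label R1, and the DKO and floxed cells carry none. Each genotype was taken in the formative state, 63 h after withdrawal of LIF and 2i, and in the naive state, in LIF and 2i. Each of the 8 groups had 2 independently cultured libraries, but the table gives them as 1 pooled column. Replicate spread is lost in such a column, so differences between lines are given by size without a test, and only the WT transition has a test, that of the authors' deposited table. In a pooled population, less mark per cell and fewer marked cells cannot be told apart.

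H3K4me1 is laid down mainly by MLL3 and MLL4, the large SET-domain enzymes encoded by Kmt2c and Kmt2d, and marks enhancers and the flanks of active promoters. MLL3 and MLL4 also act as scaffolds for a complex with WDR5, RBBP5, ASH2L, PAXIP1 and the H3K27 demethylase UTX. Other members of the KMT2 family and the SETD1 enzymes methylate H3K4 at promoters and CpG islands. As naive cells become formative, the enhancers of naive factors such as ESRRB, KLF2 and TFCP2L1 are shut down and those used by OTX2 and POU3F1 are opened.

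To show what such chromatin looks like in sequence, 6 windows of 160 bases are printed from the domains on which the results turn, read from the plus strand of the GRCm38 genome sequence of RefSeq. All lie outside annotated exons and repeats. The Mfap3l window (chr8:60566683-60566842) comes from a domain with one of the 5 largest WT gains and the Esrrb window (chr12:86453752-86453911) from the Esrrb domain with the largest WT loss; capitals mark motif matches. In the other 4, capitals mark CpG. Aurka (chr2:172367482-172367641) had the highest and Dact2 (chr17:14169455-14169614) the lowest formative difference between DKO and floxed cells. Hoxa7 (chr6:52211662-52211821) and Nmur2 (chr11:55953184-55953343) were the highest and the lowest in naive cells.
Mfap3l: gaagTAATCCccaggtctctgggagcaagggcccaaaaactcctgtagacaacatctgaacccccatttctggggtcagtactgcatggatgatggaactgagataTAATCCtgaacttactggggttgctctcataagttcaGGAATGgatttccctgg
Esrrb: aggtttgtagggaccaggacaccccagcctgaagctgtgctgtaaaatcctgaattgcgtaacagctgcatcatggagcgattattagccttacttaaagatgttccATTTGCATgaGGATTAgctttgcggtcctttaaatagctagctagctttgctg
Aurka: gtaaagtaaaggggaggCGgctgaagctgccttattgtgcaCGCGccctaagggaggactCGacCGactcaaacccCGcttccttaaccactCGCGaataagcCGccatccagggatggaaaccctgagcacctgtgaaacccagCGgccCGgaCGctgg
Dact2: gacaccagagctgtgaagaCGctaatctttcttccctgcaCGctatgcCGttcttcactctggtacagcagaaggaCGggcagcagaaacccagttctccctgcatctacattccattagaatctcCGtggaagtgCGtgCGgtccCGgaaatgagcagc
Hoxa7: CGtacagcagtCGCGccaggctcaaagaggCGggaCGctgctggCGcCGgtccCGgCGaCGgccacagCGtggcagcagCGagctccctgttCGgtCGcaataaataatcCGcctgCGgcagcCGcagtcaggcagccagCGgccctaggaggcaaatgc
Nmur2: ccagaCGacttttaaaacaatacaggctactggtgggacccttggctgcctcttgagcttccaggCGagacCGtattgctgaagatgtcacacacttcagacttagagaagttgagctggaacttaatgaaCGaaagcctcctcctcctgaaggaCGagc

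Motifs were searched on both strands as fixed letters: ESRRB TCAAGGTCA, KLF GGGTGTGG, the POU octamer ATGCAAAT, OTX2 GGATTA, ZIC CAGCAGG, TCF ATCAAAG and TEAD GGAATG. No motif holds the letters of another. The Mfap3l window was the one of its domain with the most matches, 2 OTX2 and 1 TEAD, and the Esrrb window likewise has 1 octamer and 1 OTX2 match. Of 123977 windows of the same length that tile the exon- and repeat-free parts of the domains, 0.380% hold the ESRRB letters, 1.80% KLF, 0.731% the octamer, 4.05% OTX2, 7.37% ZIC, 2.26% TCF and 10.1% TEAD. At least 2 matches occur in 3.29% of those windows and at least 3 in 0.351%. The remaining windows were the richest in CpG of their domains, and they hold 12 (Aurka), 8 (Dact2), 18 (Hoxa7) and 5 (Nmur2) CpG dinucleotides. A match is a string of letters and not a bound site.

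The domains were mostly genic. By the table's annotation 2710 were intronic, 64.3% against 46.9% of all regions, and 807 were intergenic, 19.1% against 43.3%. The label was exon for 240, transcript end for 163, promoter for 175, 3' UTR for 111 and 5' UTR for 10. Each domain has 1 such label, which need not hold for its whole length. Where a domain is placed in an intron, exon, promoter or gene end below, this is its label. A start of a protein-coding gene lay inside 1306 domains, 31.0% against 6.66% of all regions, and 347 held at least 2 starts and 1 of them 7. Their median CpG density was 14.7 per kb against 11.7 in all regions, and GC content was 49.1% against 46.2%. Names are those of the nearest gene, whether or not the domain acts on it; the domains had 3255 such genes, of which 651 had at least 2 domains and 28 at least 5, while 20 domains had no gene name and 9 a name turned into a date.

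The widest domain, 57185 bp and labelled intron, lay at Tns3, a gene for a focal adhesion protein (chr11:8543662-8600845). It held 1525 and 1757 normalized reads in formative and naive DKO, 1246 and 2269.5 in floxed, 925 and 1363 in dCD and 1388 and 2057 in WT cells. All lines were lower in the formative state, and naive floxed cells were the highest. The next widest lay at Rara, the retinoic acid receptor alpha gene (chr11:98917344-98974088), with a range of 1907 (naive dCD) to 2524 reads (formative floxed). Also among the 10 widest were domains labelled intron at the zinc finger homeobox gene Zfhx3 (chr8:108715088-108768497) and at Cmip (chr8:117330677-117384404). A domain with that label at Ago2, the Argonaute protein of RNA silencing (chr15:73134333-73184088), was among them too. So was a domain labelled exon at the deubiquitinase gene Usp10 (chr8:119911832-119961255). At the threshold, the narrowest domains, 10003 bp each, lay at R3hdml (chr2:163488636-163498637), with 159 to 319 reads over the groups, and Mpzl1 (chr1:165583507-165593508), with 210.1 to 275. The regions just below 10000 bp lay at Ankrd13a (chr5:114779085-114789082), with 199.9 to 277 reads, and Zfyve1 (chr12:83590986-83600982), with 238 to 338.

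The deposited log2 levels grow with reads over the squared width, after 1 is added, so regions of different width cannot be set side by side, and in wide regions the 1 makes differences look smaller. It was removed before any difference was taken, and each difference below is a log2 ratio of reads within a region. The median domain held 330.9 and 319.97 reads in formative and naive DKO, 373.4 and 433.6 in floxed, 318.9 and 330.1 in dCD and 378.2 and 407.0 in WT cells. Per kb, the medians were 24.1 and 23.3 in DKO, 27.6 and 32.7 in floxed, 23.0 and 24.3 in dCD and 28.2 and 30.9 in WT cells. In each group these exceeded the median over all regions, which was lowest in formative dCD (14.6) and highest in naive WT (20.8). No domain was at 0, and the lowest value of any domain was 28.0 reads. Normalized reads are not counts, so no counting interval is given, and variation between cultures is not measured by these columns.

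In WT cells the domains lost more than they gained on becoming formative. In the authors' deposited table, 1125 domains lost H3K4me1 at an FDR under 0.05 (26.7%), against 10.5% of all regions, and 391 gained it (9.27%), against 9.82% of all regions. The median difference was −0.16 in the domains and −0.03 over all regions. Changes were modest in size: 234 domains were at least 2-fold lower, where 12.1% of all regions were, and 50 were at least 2-fold higher, where 11.5% of all regions were. The lost share of the authors' deposited table ran with width, from 5.35% of regions under 2000 bp through 14.2%, 20.2% and 22.8% in the classes from 2000, 5000 and 7000 bp, to 26.7% of the domains. Median reads ran the same way, 21.2, 56.3, 132.8, 203.8 and 361.8 per region, and the part of read depth in the width trend was not tested. The gained share showed no such order: 8.79%, 10.7%, 12.6%, 11.1% and 9.27%. Among the domains the lost share was 25.9% below 15000 bp, 29.4% from there to 20000 bp, 26.6% to 30000 bp and 27.05% beyond.

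**Figure D1:**
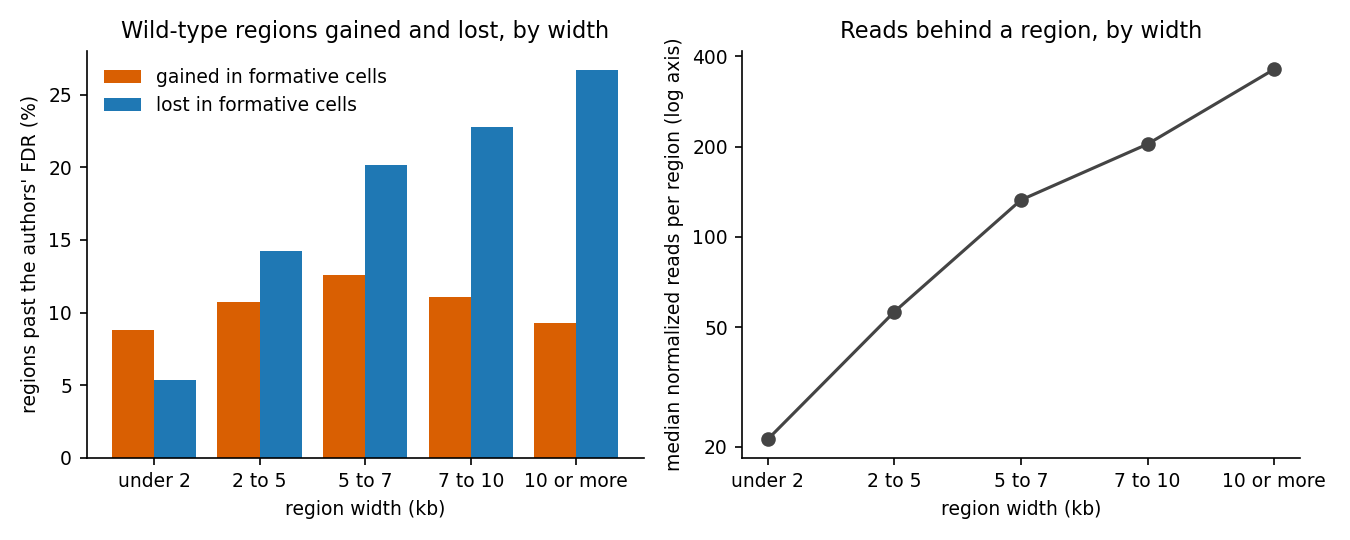
Left, share of regions gained (orange) and lost (blue) in formative WT cells by the FDR of the authors' deposited table, in percent, for 5 width classes in kb; right, median normalized reads per region on a log axis. The lost share reaches 26.7% in the domains while the gained share ends at 9.27%, and reads per region climb alongside.

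Among the 5 largest gains was a domain whose nearest gene is Mfap3l, named for its likeness to a microfibril-associated protein gene (chr8:60564783-60576503, intergenic). It held 77.7 and 62.0 reads in formative and naive DKO, 262 and 153 in floxed, 97.9 and 79.3 in dCD and 473 and 123 in WT cells. The formative controls were the highest: the WT difference was 1.94 (FDR 1.94e-19 in the authors' deposited table) and the floxed one 0.77, while DKO and dCD differed by 0.32 and 0.30. An intron of Plb1, a phospholipase gene (chr5:32280565-32290723), held 119 and 130.0, 359 and 177, 123 and 120.1, and 346 and 110.3 reads in the same order of groups. The antisense gene Ptf1aos (1.58) and an intron of the zinc finger gene Zfp608 (1.56) followed in WT; at Zfp608 formative cells were also higher in DKO (0.32) and dCD (0.57). These domains were named for the size of their WT difference, which is therefore a description.

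The largest loss lay 12607 bp from the start of Gins4, which encodes a subunit of the GINS replication complex (chr8:23219852-23230271, intergenic). It held 115 and 118 reads in formative and naive DKO, 88.9 and 268 in floxed, 110.0 and 136 in dCD and 87.8 and 387 in WT cells. Here only the naive controls were high, and the formative groups lay within a narrow range. The intron at Slc39a11, a zinc transporter gene (chr11:113581027-113593847), fell by 1.92 in WT (FDR 7.19e-22 in the authors' deposited table) with 142 formative and 537 naive reads, and formative cells were lower also in the mutants, with 191 and 352 reads in DKO and 181 and 399 in dCD. Oas1h is of the oligoadenylate synthetase family. Its domain held 84.1 and 83.1 reads in formative and naive DKO, 51.8 and 149 in floxed, 89.3 and 147 in dCD and 84.0 and 336 in WT cells. The naive floxed control itself differed from naive WT by −1.17. The zinc finger gene Zfp960 (−1.87 in WT, −0.90 in dCD) and Pcsk6, a proprotein convertase gene (−1.88 and −0.95), completed the 5 largest.

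The floxed line repeated the WT pattern across the domains. Its median was −0.26, with 326 domains at least 2-fold lower (11.4% of all regions were) and 34 higher (9.72% of all regions were). WT and floxed transitions, which share no library, had r = 0.90 over the 4216 domains and 0.78 over all regions; these are descriptions, since neighbouring regions are not independent. In DKO the transition was small: the median was 0.04, and 1 domain was at least 2-fold higher and 1 lower, against 1.36% and 1.43% of all regions. These shares fell with width, from 2.32% and 2.41% under 2000 bp to 0.0173% and 0.0694% in the class from 7000 bp. The domains had 0.0237% each. Median reads per region rose from 21.2 to 203.8 between those classes. For every comparison, the part of read depth in the 2-fold shares and in r against all regions was not tested. In dCD the median was −0.06, no domain was 2-fold higher and 16 were lower, against 1.54% and 2.79% of all regions. The sign of the dCD median turned when each group was centred on its own median over all regions. The interquartile range of the differences was −0.49 to 0.16 in WT and −0.11 to 0.18 in DKO.

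The domains called in WT were followed in the lines that did not define them. Of the 391 that gained the mark by the authors' deposited table, 384 were above 0 in the floxed transition (median 0.53) and 338 in that of DKO (0.22). Of the 1125 that lost it, 1120 were below 0 in floxed cells (median −0.81) and 770 in DKO (−0.09). In dCD, whose cells share the R1 label but no library with WT, the medians were 0.35 (355 of 391 above 0) and −0.31 (994 of 1125 below 0). Of all domains, 29.6%, 56.8% and 43.4% were above 0 in the floxed, DKO and dCD transitions, and 70.4%, 43.2% and 56.6% below 0. Classes drawn from the floxed line gave the same order in the other pair: its 326 lower domains had medians of −0.44 in dCD and −1.02 in WT, and its 34 higher ones 0.42 in dCD and 1.09 in WT. The WT and DKO transitions had r = 0.44 and the WT and dCD ones 0.61, against 0.23 and 0.38 over all regions.

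The 2 domains past 2-fold in DKO lay at Spry4, a feedback inhibitor of receptor tyrosine kinase signalling (chr18:38582220-38606160), and Accsl (chr2:93923135-93934653). Spry4 held 1179 and 580.2 reads in formative and naive DKO, 819 and 863 in floxed, 879.5 and 529 in dCD and 952 and 702 in WT cells. The formative value was the higher one in every line but the floxed one. Accsl held 182 and 395, 163 and 454, 147 and 353, and 144 and 419.8 reads in the same order, and was lower in formative cells of every line. The largest dCD transition, −1.63, lay in an intron at Tet2, a 5-methylcytosine dioxygenase gene (chr3:133497854-133512670), with 183 and 336 reads in DKO, 159 and 609 in floxed, 162 and 502 in dCD and 240.3 and 488 in WT cells. The largest positive one, 0.92, lay at Hoxb2.

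**Figure D2:**
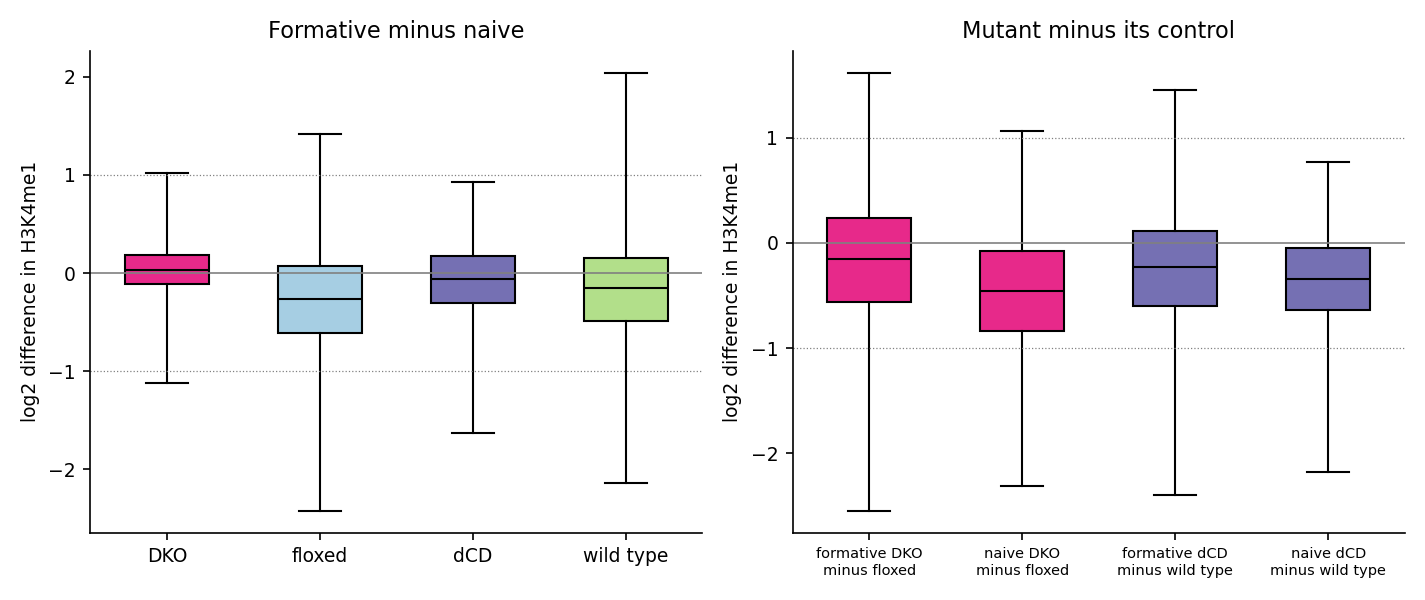
Log2 differences of H3K4me1 reads over the 4216 domains, formative minus naive in each line (left) and mutant minus control in each state (right); boxes give the quartiles and median, whiskers the lowest and highest domain, dotted lines 2-fold. DKO has the narrowest transition box, and naive DKO against floxed cells the lowest median, −0.46.

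DKO cells were set against floxed cells for the effect of MLL4 loss in cells that lack MLL3. In formative cells the median was −0.15 over the domains and −0.13 over all regions, with 329 domains at least 2-fold lower, where 17.6% of all regions were, and 91 higher, where 7.01% of all regions were. In naive cells the median was −0.46 against −0.19 over all regions, with 666 domains (15.8%) lower, where 16.9% of all regions were, and 3 higher, where 4.66% were. The share past 2-fold thus did not exceed that of all regions, while in naive cells the median was lower. Below 0 were 2561 of 4216 domains in formative cells (60.7%, against 56.2% of all regions) and 3348 in naive cells (79.4%, against 59.3%). Wider domains had fewer extremes but no smaller median: the naive share 2-fold lower was 17.6% below 15000 bp and 7.38% from 30000 bp, with medians of −0.44 and −0.51.

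Scaling changed part of this. The groups' own medians over all regions differed by −0.21 between DKO and floxed cells in the formative and by −0.22 in the naive state. After centring on these medians, the formative domains had a median of 0.06, with 160 lower and 211 higher, against 12.5% and 11.9% of all regions. The naive median became −0.24, with 338 lower and 14 higher, against 11.4% and 8.63% of all regions. So the naive median stayed below 0 and the formative one did not. The median difference over all regions, −0.13 in formative and −0.19 in naive cells, was smaller in size than these shifts. Centring therefore takes it above 0 as well, and 0 is not the value of all regions on that scale. Domains and all regions move alike, so the domain median stays below that of all regions in each state.

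Nmur2, a neuromedin U receptor gene, had the lowest naive value (chr11:55950944-55960996, intergenic). The domain held 74.9 and 73.9 reads in formative and naive DKO, 252 and 367 in floxed, 75.9 and 90.0 in dCD and 279.6 and 293 in WT cells. Both mutants were low and both controls high in each state. Dact2, an antagonist of Dishevelled in WNT signalling (chr17:14168615-14179980, intergenic), was the lowest in formative cells, with 99.8 and 101 reads in DKO, 584 and 497 in floxed, 164 and 134 in dCD and 554 and 341 in WT cells. An intron at D17Ertd648e (chr17:11527082-11537343) gave −2.52 in formative and −2.28 in naive cells. Tnfrsf19, a TNF receptor family gene (chr14:60979581-60994698), followed in formative cells with −2.08.

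Among the domains higher in formative DKO, many were lower in the formative than in the naive controls. At Aurka, which encodes a mitotic kinase (chr2:172354822-172368374, intron), there were 586 and 539 reads in formative and naive DKO, 191 and 366 in floxed, 387 and 402 in dCD and 197 and 361 in WT cells. The formative controls were low, and the mutants kept about their naive level. Ect2, a gene needed for cytokinesis (chr3:27133871-27146574), had 271 and 277, 99.2 and 282, 158 and 294, and 103 and 314 reads in the same order, so naive cells of the lines hardly differed. Tfdp1, the dimerization partner of E2F (chr8:13340017-13363153), had 902 and 892 reads in DKO and 333 and 659 in floxed cells. Of the 91 domains at least 2-fold higher in formative DKO, 90 were below 0 in the WT transition, with a median of −0.87. Of all domains, 63.3% were below 0 there. The WT libraries did not choose the 91, but a low formative floxed value did in part. The WT and floxed transitions had r = 0.90, so this count is a description. The median CpG density of the 91 domains was 16.4 per kb and 31.9% held a coding start. The 329 lower ones had 11.1 CpG per kb and a coding start in 4.86%, and the 666 lower in naive DKO had 11.2 and 7.66%.

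The exception in naive cells was Hoxa7 of the HOX-A cluster (chr6:52210762-52227905, promoter), with 979 and 838 reads in formative and naive DKO, 638 and 401 in floxed, 845 and 589 in dCD and 589 and 412 in WT cells. DKO was the highest in each state and dCD the next. An intron at Tmem64 and the end of Polrmt, the mitochondrial RNA polymerase gene, were higher in naive DKO by 1.02 and 1.00. In both, the floxed control was low, with 131 and 132 reads in formative and naive floxed cells at Tmem64 against 170.1 and 367 in WT cells, and 159.7 and 130.1 at Polrmt against 228 and 259 in WT cells.

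**Figure D3:**
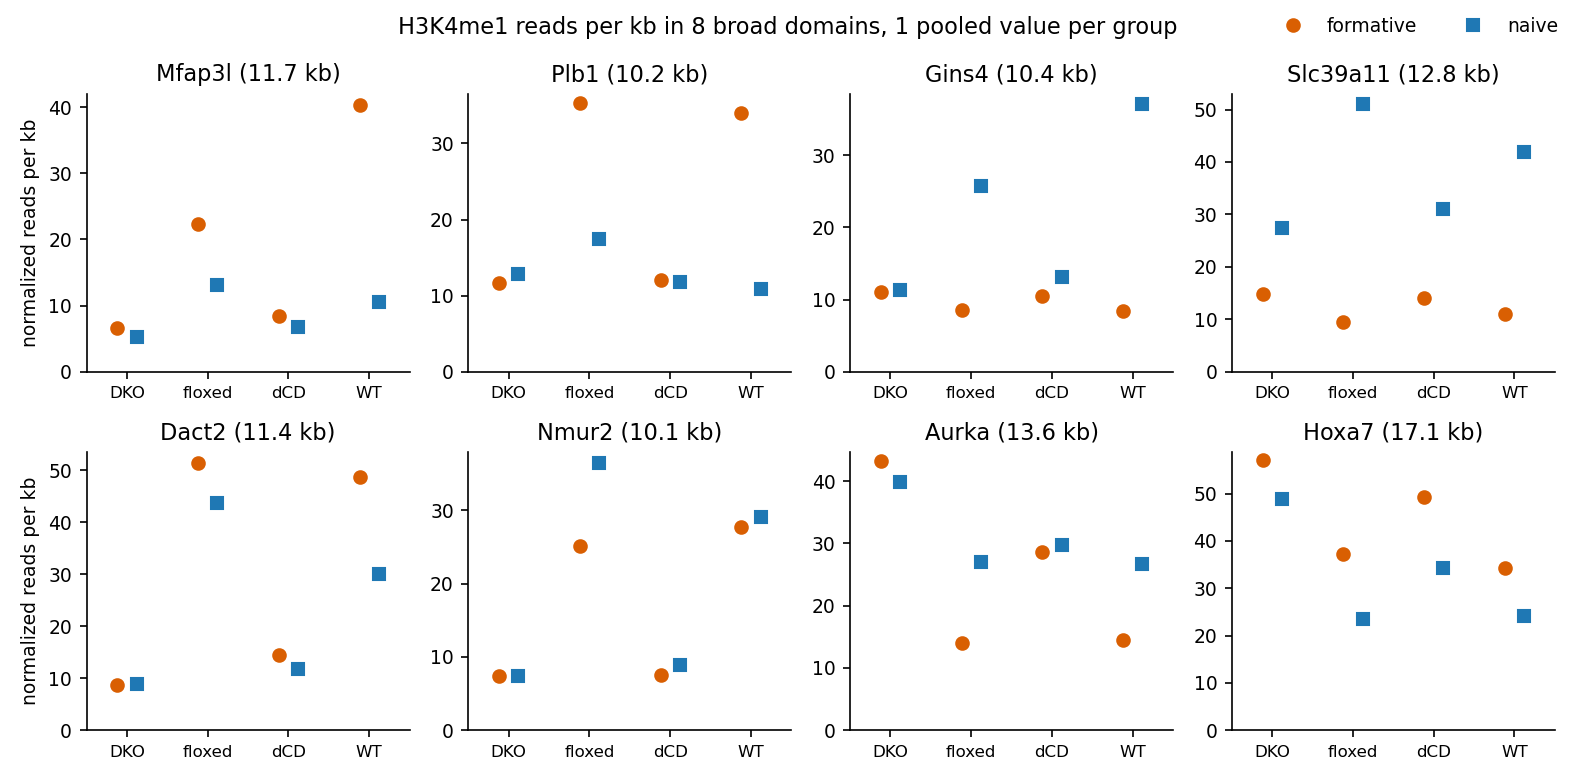
Normalized reads per kb in 8 named domains (one panel each, width in the title) for DKO, floxed, dCD and WT cells, formative as circles and naive as squares; each point is 1 pooled column. Plb1 is highest in formative floxed and WT cells, Nmur2 is low in all mutant groups, and Aurka is low in formative floxed and WT cells (191 and 197 reads in the domain).

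The dCD cells, set against WT, were lower in the same direction as DKO. The formative median was −0.23 (−0.30 over all regions), with 320 domains at least 2-fold lower and 9 higher, where 21.1% and 2.90% of all regions were. The naive median was −0.34 (−0.30 over all regions), with 316 lower, where 15.0% of all regions were, and none higher, where 1.70% were. The groups' own medians differed by −0.41 in formative and −0.36 in naive cells, and centring turned the sign of both domain medians, to 0.18 and 0.02. Then 71 formative domains were lower and 180 higher, against 10.3% and 11.6% of all regions, and 74 naive domains lower and 11 higher, against 6.23% and 7.34%. Before centring, the domain median lay above that of all regions in formative dCD (−0.23 against −0.30) and a little below it in naive dCD (−0.34 against −0.30). After centring, the domain median was above 0 in both states. The same holds for the median over all regions, whose −0.30 is smaller in size than either shift. Centring moves both alike, so the order of domains and all regions stays as before it.

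The domains ranked alike in both mutants. The DKO effect (against floxed) and the dCD effect (against WT), which share no library, had r = 0.82 in formative and 0.76 in naive cells over the 4216 domains, against 0.73 and 0.63 over all regions. They had the same sign in 82.2% of the domains in formative and in 85.5% in naive cells. Most domains were below 0 in each mutant, 60.7% (DKO) and 67.3% (dCD) in formative and 79.4% and 78.7% in naive cells. Many would share a sign from that common direction alone. In formative cells 183 domains were at least 2-fold lower in both, 55.6% of the DKO list and 57.2% of the dCD list. In naive cells 217 were, 32.6% and 68.7% of the lists. Of the 91 domains higher in formative DKO, 88 were above 0 in dCD, with a median of 0.60, where 32.7% of all domains were above 0.

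Named domains show the likeness. Ppp4r4, a regulatory subunit gene of protein phosphatase 4 (chr12:103560317-103571716, intron), was the lowest in formative dCD with 139 and 122 reads in formative and naive DKO, 487 and 315 in floxed, 105 and 124 in dCD and 551 and 318 in WT cells. Defb46, a beta-defensin gene (chr8:19232098-19243180), the lowest in naive dCD, held 89.5 and 82.5, 290.3 and 263, 91.5 and 78.1, and 431 and 354 reads in the same order. Both mutants were low and both controls high at either locus. The highest values in formative dCD lay at Hsp90b1, the endoplasmic reticulum chaperone gene (chr10:86691315-86707244), and Qars, a glutaminyl-tRNA synthetase gene (chr9:108507086-108517613), with 1.45 each, and at Cdca8, a chromosomal passenger complex gene (chr4:124927250-124939433), with 1.40. Hsp90b1 held 586 and 611 reads in formative and naive DKO, 260.0 and 408 in floxed, 545 and 552 in dCD and 199 and 384 in WT cells, so that both mutants were higher in each state.

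**Figure D4:**
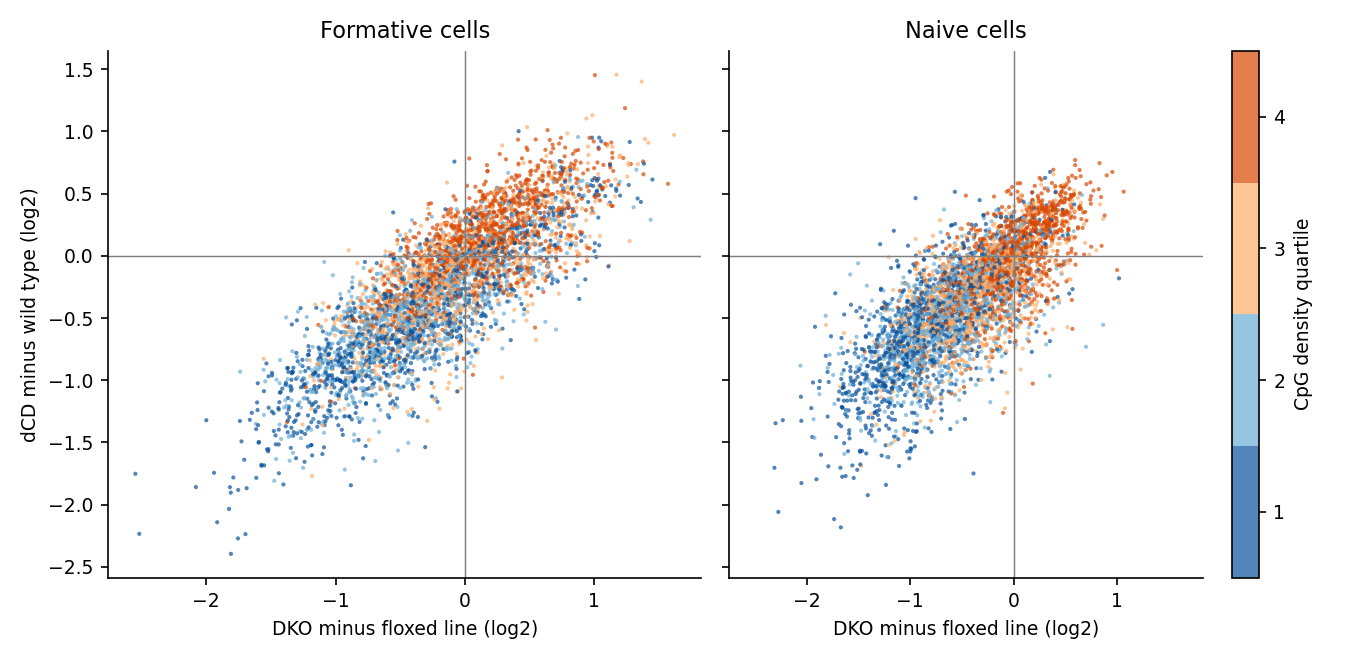
Log2 difference of DKO against floxed cells (horizontal) and of dCD against WT cells (vertical) in each domain, formative cells left and naive cells right; each point is 1 domain, coloured by CpG quartile from low (blue) to high (orange). The points run along the diagonal in each state, with r = 0.82 in formative and 0.76 in naive cells.

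CpG density, which the width rule did not use, ordered the mutant effects. The domains were split at 11.8, 14.7 and 18.4 CpG per kb into quartiles of 1054. From the lowest to the highest density the medians in formative DKO were −0.40, −0.38, −0.13 and 0.14. In naive DKO they were −0.83, −0.64, −0.38 and −0.02, and 376, 209, 71 and 10 domains were at least 2-fold lower. In formative dCD they were −0.54, −0.46, −0.18 and 0.14, and in naive dCD −0.57, −0.50, −0.31 and −0.01. The step from the lowest to the highest quartile, 0.54 and 0.81 in formative and naive DKO and 0.68 and 0.56 in dCD, does not depend on how the groups are centred.

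The split was also read with and without coding starts. Domains with a coding start inside had a median of −0.10 in naive DKO and those without one −0.60. Among domains without a start the naive DKO medians by quartile were −0.85, −0.66, −0.45 and −0.16. The order was not particular to the domains: with the same bounds, narrower regions had naive DKO medians of −0.52, −0.14, 0.05 and 0.35, and 51.0% of them fell in the lowest class. Within each of the 4 classes the domains had a lower median than the narrower regions in naive DKO. The lowest and highest classes are open at their outer end, so density within a class was not matched. In formative DKO the narrower regions ran from −0.55 to 0.51, a wider step (1.06) than in the domains.

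**Figure D5:**
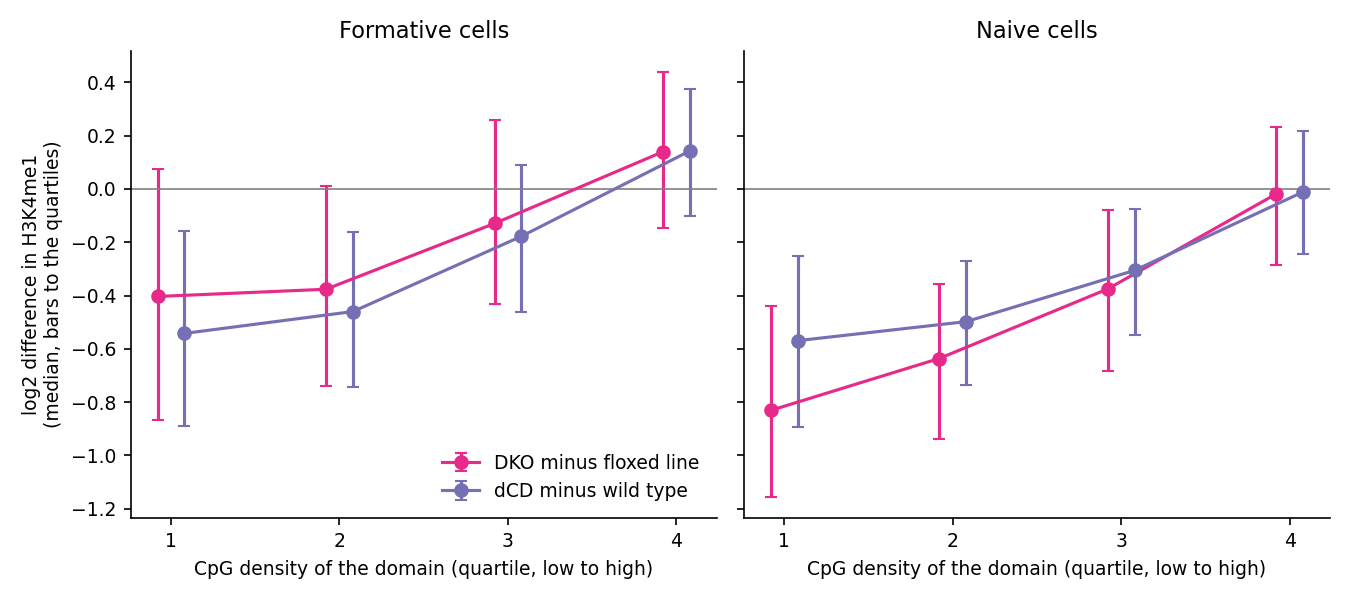
Median log2 difference by CpG quartile of the domains, low to high density, for DKO minus floxed (pink) and dCD minus WT cells (violet), formative cells left and naive cells right; bars run from the lower to the upper quartile of the domains in a class. In naive DKO the medians climb from −0.83 to −0.02.

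Gene lists drawn up for this cell system were read next, by role. For every list, the shares to set beside its calls in the WT transition are 9.27% gained and 26.7% lost over all domains, and 9.82% and 10.5% over all regions. The naive pluripotency list of 22 genes had 25 domains at 14 genes. By the authors' deposited FDR, 10 of the 25 lost the mark in formative WT cells and none gained it, and 21 of 25 were below 0, where 63.3% of all domains were (median −0.35, where that of all regions was −0.03). Klf2, a Krüppel-like factor of the naive network, had 2 adjoining domains (chr8:72328901-72356643 and chr8:72357188-72371196), which fell by 1.17 and 1.61. The wider one held 376 and 499.7 reads in formative and naive DKO, 487 and 1114 in floxed, 404 and 527 in dCD and 639 and 1442 in WT cells. The naive mutants lay near the formative controls.

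Esrrb, the orphan receptor gene of the naive state, had 5 domains over its body, and 4 of them lost the mark in WT by the authors' deposited table. The one whose sequence is printed (chr12:86444692-86458617) held 157 and 168 reads in formative and naive DKO, 191 and 486 in floxed, 163 and 206 in dCD and 215 and 446 in WT cells. The difference of naive DKO from floxed was −1.53 there but −0.09 in each of 2 neighbouring domains, so the domains of this gene varied among themselves. Tfcp2l1 (chr1:118680293-118691971), a naive state factor, fell by 0.90 in WT and was lower by 1.24 in naive DKO. Prdm14, a repressor of differentiation, had a domain at chr1:13062971-13073226 that lost the mark in WT (−0.89, FDR 0.000342 in the authors' deposited table). Its domain at chr1:13078010-13098939 did not pass there (−0.22, FDR 0.556 in the authors' deposited table). That domain was lower in both mutants, with 244 and 266 reads in formative and naive DKO, 561 and 819 in floxed, 260.5 and 319 in dCD and 589 and 686 in WT cells. In all, 7 of the 25 were at least 2-fold lower in naive DKO, where 15.8% of all domains and 16.9% of all regions were. The domain at Mras, a RAS-family GTPase gene (chr9:99414306-99440689), was different: it held 731 and 1278 reads in formative and naive DKO, 506 and 1254 in floxed, 567 and 1079.6 in dCD and 519 and 1065 in WT cells, so all naive groups were high and every line was lower in the formative state.

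Formative and primed genes had 15 domains, of which 10 gained and 1 lost the mark in the authors' deposited table, where 9.27% and 26.7% of all domains did; 14 were above 0 in WT (median 0.51), 12 in floxed, 13 in DKO and 11 in dCD cells, where 36.7%, 29.6%, 56.8% and 43.4% of all domains were. Pou3f1, the POU factor of the formative state (chr4:124643798-124657725), held 464 and 317 reads in formative and naive DKO, 654 and 422 in floxed, 458 and 269 in dCD and 683 and 322 in WT cells, higher in formative cells of every line. Wnt8a (1.11), a WNT ligand, Fgf15 (0.82), an FGF ligand, and Otx2 (0.55), a homeobox factor, rose in WT. At Dnmt3a, the de novo DNA methyltransferase gene (chr12:3877157-3890666), the mutants were low, with 229 and 225 reads in formative and naive DKO, 663 and 609.6 in floxed, 365 and 227 in dCD and 665 and 477 in WT cells. Etv5, an ETS factor downstream of FGF signalling, had 3 domains whose WT differences were −0.72, 0.57 and 0.10.

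Among core pluripotency genes, 6 had 1 domain each, 1 gained and 2 lost. The domain near Pou5f1, which encodes OCT4 (chr17:35495176-35506458), did not pass in WT (0.27, FDR 0.694 in the authors' deposited table) and was lower in DKO by 1.01 in formative and 0.91 in naive cells. At Sox2, an HMG-box factor gene, a 22635 bp domain differed by −0.40 in formative and −0.32 in naive DKO. At Nanog, a homeobox factor gene, the differences were 0.18 and 0.29.

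Domains at later lineage genes were mostly higher in formative WT cells. By the authors' deposited table, 7 of 12 neural domains gained and none lost, where 9.27% and 26.7% of all domains did, led by Lmx1b (0.87) and Meis2 (0.83), which encode homeobox factors, and Nes (0.79), which encodes nestin. Of 7 HOX domains 4 gained and none lost, and all 7 were above 0 in the WT, floxed, DKO and dCD transitions. Hoxb1 (chr11:96362683-96377357) held 327 and 256 reads in formative and naive DKO, 616 and 307 in floxed, 294 and 252 in dCD and 638 and 224 in WT cells. In naive DKO against floxed cells 5 of the 7 were above 0, with a median of 0.54 where that of all regions was −0.19. Mesoderm and streak genes had 6 domains, 2 gained and 1 lost, the organizer gene Gsc (−1.07). Endoderm genes had 4, of which Foxa1 (1.03) and Foxa2 (0.72), forkhead pioneer factors, gained and Cxcr4 (−0.48) and Lama1 (−0.65) lost.

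Of 31 domains at WNT, FGF and TGF-beta genes, 11 gained and 1 lost in the authors' deposited table, and 25 were below 0 in DKO against floxed cells in the formative and also in the naive state, where 60.7% and 79.4% of all domains were, so the naive count is near the share of all domains. A 2-fold lower value was reached by 2 of them in formative and 1 in naive cells. Wnt3, a ligand of primitive streak formation, had 4 domains, and those at chr11:103762426-103779609 and chr11:103789039-103803465 rose by 0.88 and 0.92 in WT. The fourth (chr11:103820648-103834290) differed by −0.14 in WT but by −1.16 and −1.17 in formative and naive DKO, and by −1.05 and −1.09 in dCD. Skil, a repressor of SMAD signalling (chr3:31083589-31093721), rose by 1.08 in WT and was lower by 1.25 in formative DKO.

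Of 7 domains at genes of H3K4 methylation, 4 lost and none gained the mark by the authors' deposited table, where 26.7% and 9.27% of all domains did. Wdr5, a shared subunit of the KMT2 complexes (chr2:27518108-27531904), fell by 1.69 in WT, with 216 and 317 reads in formative and naive DKO, 162 and 331 in floxed, 227 and 301 in dCD and 114 and 367 in WT cells. The formative mutants were above their controls and the naive groups lay close together. Paxip1, which encodes a subunit particular to the MLL3 and MLL4 complexes (chr5:27808174-27824643), was low in both mutants, with 139 and 166 reads in formative and naive DKO, 259 and 503 in floxed, 111 and 147 in dCD and 213 and 436 in WT cells. Ash2l, another shared subunit, was higher by 1.34 in formative DKO. Polycomb genes had 11 domains, none gained and 2 lost. The 5 at Jarid2, a PRC2 subunit, differed by −1.22 to −0.33 in naive DKO. Housekeeping genes had 4 domains, of which Gapdh (−0.82) lost the mark, and long non-coding and microRNA host genes had 7, of which Malat1 (0.47) gained and Kcnq1ot1 (−1.15) lost it.

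Genes with at least 7 domains were named after their values were seen, and their counts stand beside 60.7% of all domains below 0 in formative and 79.4% in naive DKO. Gse1 had 9 domains over 144165 bp, 8 of 9 below 0 in formative DKO and all in naive DKO (−0.95 to −0.57). Rybp, a subunit of variant PRC1, had 7, all below 0 in both states, from −1.66 to −0.33 in naive cells. At Tns3 3 of 9 were below 0 in formative and 8 in naive DKO. Med13l, a Mediator kinase module gene, had 7 of 7 below 0 in naive DKO and Myo10, an unconventional myosin gene, 5 of 7.

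The authors' deposited table also holds log2 folds for H3K27ac at each region and for RNA of the nearest gene, made from other samples. In the authors' deposited table the domains that gained H3K4me1 in WT had a median H3K27ac fold of 0.70 in WT and 0.30 in DKO, and an RNA fold of 1.19, above 0 for 155 of 187 with a value. In the authors' deposited table the domains that lost H3K4me1 had median H3K27ac folds of −0.59 in WT and −0.30 in DKO and an RNA fold of −0.32, below 0 for 392 of 579. Over all domains the authors' deposited table gives −0.14, −0.12 and −0.01, and over all regions 0.33, 0.05 and 0.18. In the authors' deposited table the RNA fold was above 0 for 1074 and below 0 for 1094 of the 2168 domains with a value. The RNA fold is that of the nearest gene, so a gene with several domains is counted once for each.

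H3K27ac was also read between DKO and WT. In the authors' deposited table, the 329 domains at least 2-fold lower in H3K4me1 in formative DKO had a median H3K27ac fold of −0.55 in formative cells, below 0 in 260 of them. The 91 higher ones had 0.62, above 0 in 73, and those within 2-fold 0.09, in the authors' deposited table. In naive cells the 666 lower domains had −0.81 in the authors' deposited table, below 0 in 565 (84.8%), against 0.15 and 41.7% in the domains within 2-fold. The H3K27ac folds set DKO against WT, while the H3K4me1 differences set it against floxed cells.

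The floxed line was also set against WT. The formative median was −0.01, with no domain at least 2-fold higher and 13 lower, against 0.594% and 4.10% of all regions. The naive median was 0.11, with none higher and 20 lower, against 0.942% and 4.72% of all regions. When each group was centred, the medians were 0.15 in formative and 0.25 in naive cells. The formative sign turned there and when chromosomes 8, 14, 17 and X were left out (0.02). The lowest value lay at 2410141K09Rik (chr13:66433193-66448501), with 29.6 and 34.4 reads in formative and naive floxed cells against 384 and 896 in WT cells. DKO held 28.0 and 30.5 reads and dCD 648 and 1116, so the floxed and DKO cells, which carry no R1 label, were low together. Of the 13 formative domains 5 were on chromosome 13, and of the 20 naive ones 4. MLL3 loss and line of origin cannot be told apart in these comparisons.

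Chromosome 8 held 470 domains, 4.14% of its regions, while X held 2. Over narrower regions, reads per kb on chromosome 8 relative to the other autosomes were 0.92 and 0.95 in formative and naive DKO, 0.81 and 0.79 in floxed, 0.88 and 0.89 in dCD and 0.99 and 1.09 in WT cells. Its domains moved with it: in naive dCD against WT their median was −0.61, against −0.30 on the other autosomes, and 18.3% were at least 2-fold lower, against 6.14%. In the WT transition the medians were −0.30 and −0.14, and 38.7% of its domains were lost by the authors' deposited table. In naive DKO against floxed cells they were −0.27 and −0.48. In floxed against WT cells the chromosome 8 domains had medians of −0.31 in the formative and −0.31 in the naive state, where those on the other autosomes had 0.02 and 0.13. The part of the chromosome's copy number in these values was not tested, and it touches Klf2, Gins4, Mfap3l, Defb46, Tfdp1, Ash2l and Gse1. Chromosomes 14 and 17 stood apart in DKO against floxed cells. Their narrower regions had medians of −0.41 and −0.38 in formative and −0.49 and −0.51 in naive cells, where all regions had −0.13 and −0.19. Narrower regions on X had −0.59 in formative and −0.48 in naive cells. Copy number was not tested there either. Chromosomes 14 and 17 hold the domains named at Dact2, D17Ertd648e, Tnfrsf19 and Pou5f1.

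Some domains stood out in read density. A mean of at least 100 reads per kb was reached by 6, among them Mir101c (chr9:3009190-3038326), with 720.8 and 1058.5 reads per kb in formative and naive WT cells, and the neighbours Pisd-ps1 and Sfi1 on chromosome 11. They are counted above but not named elsewhere, and how reads were placed in repeated sequence is not given in the sources used here.

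The domains moved with the narrower regions around them. For 4215 domains with a narrower region within 50000 bp (median 15 of them), the WT difference of the domain and the median of its neighbours had r = 0.58 and the same sign in 70.7%. In naive DKO the domain median was −0.46 and that of the neighbours −0.28, with r = 0.47. ESRRB letters were 1.48 times as frequent per kb in lost as in gained domains and 2.64 times in narrower regions, KLF letters 1.13 and 2.07 times, and octamer letters 0.92 and 0.66 times. For OTX2 letters the domains had the larger ratio, 1.201 against 1.095, and the ratios lay nearer each other for ZIC (0.85 and 0.81), TCF (1.02 and 0.91) and TEAD (0.93 and 0.91). These ratios have no test.

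Markers of state were checked over all regions within 50 kb. In WT, 6 of 6 naive marker genes were lower in formative cells (−1.38 to −0.00) and 6 of 6 formative markers higher (0.02 to 1.65). Of 7 fibroblast genes, which would mark feeder cells, 6 were higher (−0.27 to 2.20 over the list), and their part in the results was not tested.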

How the data were processed

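CUT&RUN for H3K4me1 was done on 16 libraries, 2 for each of 8 groups; 4 MLL4 libraries and 1 IgG library were not analysed here. The build is mm10 and the tools are Trim Galore, Bowtie2, SEACR, DiffBind and deepTools, per the submitters' processing notes. Versions, each tool's role and the use of the added yeast DNA: not given in the sources used here. Per the file headers and values, the authors deposited 1 log2 level per region and group, with the libraries of a group pooled, and for the WT transition a log2 fold, a p-value and an FDR. Folds for H3K27ac and RNA in the authors' deposited table come from other samples. The floxed line was read from the columns headed CKO. The label fields give different catalogue numbers for the H3K4me1 antibody, which could not be settled, so the mark is named as labelled. Another 14 level columns and 4 fold columns were not used.

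Levels were turned into normalized reads by log2(2^level − 1), with the offset fitted in WT (22.2 in each state), and differences are log2 ratios of these reads, counted at 2-fold. The fit across replicates planned for each region could not be run on pooled columns. For the WT transition an FDR under 0.05 was used; stable domains had an FDR above 0.2 and a difference under 0.5 in size. Depth is given by the reads per domain in each group. Coding starts come from GENCODE M21 and CpG from GRCm38, within whose chromosome ends all nuclear regions lie. Named were the 10 widest domains, the 5 highest and 5 lowest of each comparison, the members of 12 gene lists and the 2 domains on either side of the width threshold; of these a part is printed, and 1 of the 5 highest in the WT transition is not reported here. The domains and lists were chosen with earlier results of these data known. Alternatives changed the scale, the centring, the width threshold, the chromosomes and the FDR. Python 3.11.15, numpy 2.4.6, pandas 2.3.3, scipy 1.17.1 and matplotlib 3.10.9 were used, and the comparisons were tested on simulated data.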

Additional observations from a re-analysis of the deposited data

How the results depend on the processing

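Of 51 alternatives, 30 left a share of domains past 2-fold inside its 95% exact binomial interval, or a count within 1.5 times, and 21 moved it. The interval treats domains as independent, which neighbours are not, and does not measure spread between cultures. It serves here only as a yardstick for the size of a move. Shares are of domains past 2-fold in either direction; medians that turned sign are given with the results. Without removing the added 1, which shrinks differences in wide regions by construction, the shares were smaller: 4.17% in place of 6.74% in the WT transition, 5.36% in place of 8.54% in the floxed one, 0.190% in place of 0.380% in that of dCD, 11.2% in place of 15.9% for naive DKO, 6.31% in place of 9.96% for formative DKO, 4.41% in place of 7.50% for naive dCD and 4.89% in place of 7.80% for formative dCD. Centring gave 8.35% for naive DKO, 8.80% for formative DKO, 2.02% for naive dCD and 5.95% for formative dCD. With a width threshold of 8000 bp the shares were 7.78% in the WT transition, 11.5% for formative DKO and 9.35% for formative dCD. At 15000 bp they were 5.97% (WT transition), 7.53% (floxed transition), 12.4% (naive DKO), 7.17% (formative DKO), 5.11% (naive dCD) and 4.55% (formative dCD). Leaving out chromosomes 8, 14, 17 and X gave 6.32% for naive dCD. For the width threshold and the chromosomes the cause was not tested. At an FDR under 0.01 in the authors' deposited table, 250 domains gained and 851 lost the mark. No paired analysis was possible because the columns pool the 2 libraries of each group, and leaving out each replicate was not run for the same reason. Pooled columns limit every difference between lines to a description of these cultures.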
